A study of Mus musculus with 203 samples.

Results

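Heart-labeled and larynx-labeled neurons of the mouse nucleus ambiguus were compared gene by gene after the ribosomal precursor gene Rn45s had been taken out of every neuron's total. Members were chosen by the target that the deposited annotation gives each neuron. They are 52 larynx neurons and the heart neurons, which the annotation divides into 53 ACP and 98 ACV neurons, and together they make up the whole series with no neuron left out. ACP and ACV are types that the study named after clustering these same counts, so levels by type describe those clusters and test nothing about them. Neurons came from C57BL/6 mice, given as C57BL/6NCrl in the study's methods, that received a fluorescent conjugate of cholera toxin B, a retrograde tracer, in the pericardial space or in the cricothyroid muscle of the larynx. Labeled cell bodies were drawn into pipettes from brainstem slices at postnatal days 2 to 4 and sequenced singly with Smart-seq2, which reads whole transcripts. No genetic change is given for either group. The study's methods describe anesthesia by cold and buprenorphine for both injections, and isoflurane before the brain was taken. Surgery differed by target, with the chest opened and a larger tracer volume for heart, and the neck opened for larynx. The labels do not say which mouse a neuron came from, and separate injections marked the targets. Target, surgery and mouse therefore cannot be told apart, and each target counts as 1 sample. For that reason the values are levels, shares and folds, some with intervals on counts, and no p-value is given.

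The nucleus ambiguus holds cholinergic motor neurons of more than a single kind. Parasympathetic preganglionic neurons reach the heart through small ganglia on its surface, where acetylcholine released onto nicotinic receptors of the ganglion cells slows the heartbeat. Branchial motor neurons, by contrast, end directly on striated muscles of the larynx and pharynx, and many such motor neurons also carry the peptide CGRP.

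Every neuron was expressed as counts per 10000 of its counts other than Rn45s, and the level of a gene is the mean of these values over the neurons of a group. A gene was considered if at least 1 read was found in 25% of the neurons of either target and if its mean reached 0.1 per 10000 in the higher target, which left 10174 of 24028 genes. It was counted as higher in a target when the means lay at least 2-fold apart. It was counted as shared when the ACP mean and the ACV mean each lay at least 2-fold from the larynx mean on the same side.

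Libraries held 840315 to 3175434 counts in heart neurons and 542162 to 3292763 in larynx neurons. Rn45s took a median of 35.6% of the counts in heart neurons (range 12.4 to 82.5%) and 58.6% in larynx neurons (26.6 to 91.5%), which left medians of 1115375 and 560892 other counts. At an equal 200000 counts per neuron, which 49 larynx and all heart neurons reached, the median number of genes detected was 7083 in heart and 7156 in larynx neurons. The vesicular acetylcholine transporter Slc18a3 was detected in all neurons, while Chat, the enzyme that makes acetylcholine, was found in 100% of heart and 88.5% of larynx neurons. The summed level of 7 motor neuron markers was below 10 per 10000 in 7 heart and 7 larynx neurons. Apoe, an astrocyte gene by which the study screened for glial material, exceeded the study's limit of 1800 counts in 39 heart neurons and 0 larynx neurons. The study's methods state that neurons over that limit were taken out before clustering, yet these neurons are in the deposited tables and were kept here. That limit is on raw counts, which were more numerous in heart neurons, and the highest larynx neuron held 1784 counts of Apoe. Per 10000, Apoe averaged 17.9 in heart and 13.8 in larynx neurons. The summed level of 12 astrocyte markers ran from 4.49 to 322 in heart neurons (median 26.8) and from 15.8 to 184.5 in larynx neurons (median 38.2), and Gfap and Aqp4 were the members at least 2-fold higher in heart. In 2 pairs formed by 3 ACV neurons, profiles correlated at 0.965 and 0.932, whereas the next closest pair of neurons in the series stood at 0.897. Reads of Xist without any Y-linked read, as in females, were found in 39.7% of heart neurons (exact Clopper-Pearson 95% interval 31.9 to 48.01) and in 17.3% of larynx neurons (8.23 to 30.3). Clopper-Pearson intervals here and below treat neurons as independent, although neurons from the same mouse share its sex and the mice are not given. Poisson intervals below treat reads as independent, although amplified reads were not tagged by molecule. Both are therefore likely too narrow, and neither covers differences between mice. Parts played by Rn45s share, glial RNA and sex in the folds were not tested, and folds without the neurons concerned are given for named genes that changed side.

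Removal of Rn45s changed which target appeared richer in higher genes. Of the 10174 genes considered, 570 (5.6%) were at least 2-fold higher in heart neurons and 866 (8.51%) in larynx neurons, and the median log2 fold of all genes considered was -0.02. With Rn45s left in the totals, 8528 genes passed the same minimums, of which 1798 (21.1%) were higher in heart and 215 (2.52%) in larynx neurons, and the median log2 fold stood at 0.59. Heart thus accounted for 39.7% of the calls without Rn45s and 89.3% with it. With each gene's highest neuron of each target left out, heart took 56.9% of the calls (828 and 626 genes). No gene went from a call for either target to a call for the other. The heart calls common to both scalings numbered 431, or 23.97% of those made with Rn45s kept, and all 215 larynx calls made with Rn45s kept were also made without it.

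**Figure D1:**
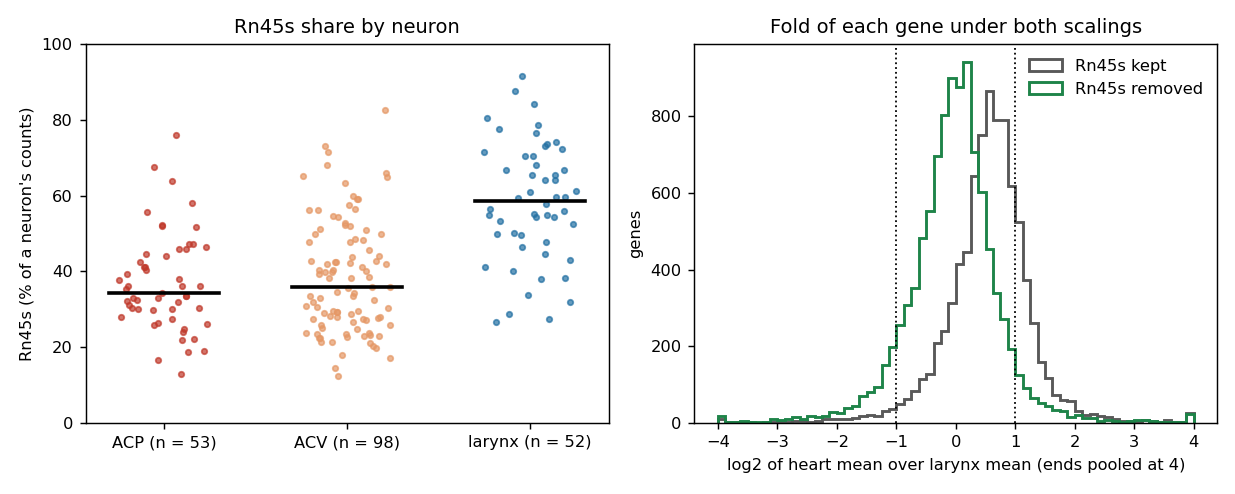
Left, percent of a neuron's counts that fell on Rn45s for ACP, ACV and larynx neurons (1 point per neuron, line at the median). Right, number of genes by log2 of the heart mean over the larynx mean, with Rn45s kept or removed, with dotted lines at 2-fold. Larynx neurons carried the larger Rn45s share, and the distribution of folds was centred at 0.59 with Rn45s kept and at -0.02 without it.

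The 5 most abundant genes that lost a heart call were detected in every neuron. They are the alpha tubulin gene Tuba1a, the axonal growth protein gene Dpysl2, the beta tubulin gene Tubb2a, the reticulon gene Rtn1 and the nuclear RNA Malat1. Tuba1a stood at 115.9 per 10000 in heart and 78.7 in larynx neurons, a log2 fold of 0.56 that was 1.21 with Rn45s kept. Folds of the other 4 fell from between 1.01 and 1.12 to between 0.45 and 0.53 on the log2 scale. In the opposite sense, the citrate-cleaving enzyme gene Acly (5.32 in heart, 12.9 in larynx) and the calcium pump gene Atp2b1 (3.99 and 10.3) became larynx calls only without Rn45s, as did Nefm, Chga and Lars2. Lars2 was 2-fold apart in 5 of the 14 alternative scalings and sets of neurons tried, with a log2 fold of -1.18 that was -0.36 with Rn45s kept and -0.15 among neurons with Rn45s under 50% of counts.

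Requiring ACP and ACV to agree left 321 shared heart genes (3.16% of genes considered) and 509 shared larynx genes (5%), which are 56.3% and 58.8% of the calls. ACP neurons alone carried 84 heart calls (0.826%), and ACV neurons alone carried calls for 1.62% of genes considered. For larynx, 72 genes (0.708%) were 2-fold above ACP but not ACV and 285 (2.8%) above ACV but not ACP. A weaker demand, that ACP and ACV lie on the same side of the larynx mean by any amount, was met by 529 of 570 heart calls and 862 of 866 larynx calls, against 75.0% of all genes considered. As ACV make up most heart neurons, the heart mean follows them more closely than ACP, so these counts are not independent of the calls. A further 39 genes had ACP and ACV at least 2-fold from larynx on opposite sides, and 26 of those showed less than 2-fold difference by target.

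Just inside the threshold on the heart side were Syt4 (4.18 in heart and 2.08 in larynx) and Pigb (0.144 and 0.0718), and just outside it were Naglu (0.227 and 0.114) and Fibcd1 (1.23 and 0.615). On the larynx side Zfp354c (0.187 and 0.374) was just inside and Col6a2 (0.272 and 0.544) just outside.

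**Figure D2:**
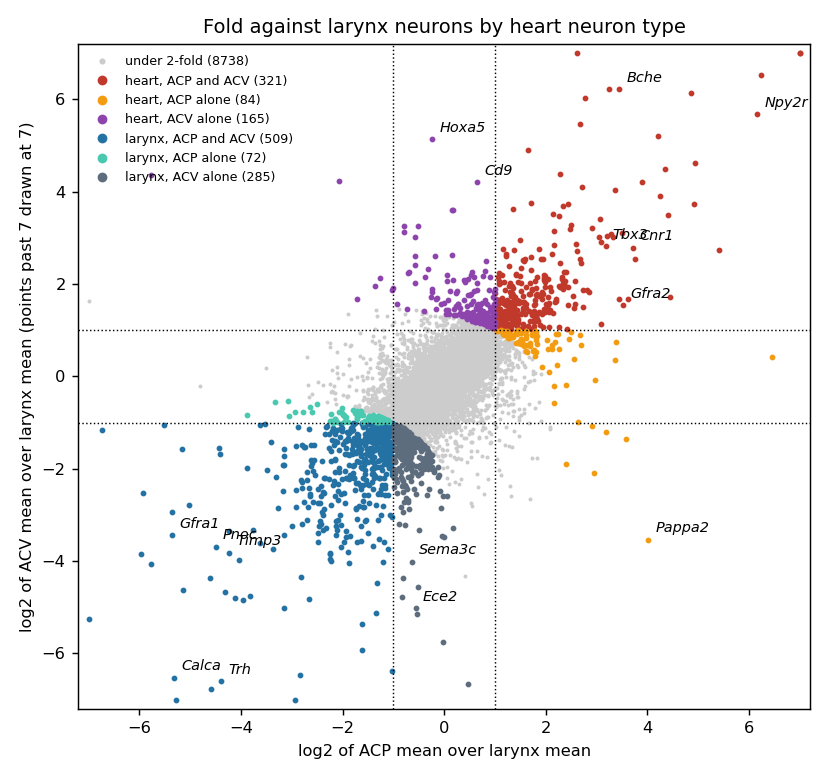
Log2 of the ACP mean over the larynx mean against log2 of the ACV mean over the larynx mean for the 10174 genes considered, colored by class, with dotted lines at 2-fold. The 321 shared heart genes fill the upper right and the 509 shared larynx genes the lower left, while Pappa2 and Hoxa5 lie off the diagonal because a single heart type carries each.

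Leading genes are the 14 of largest fold for each target among shared genes that were also called with Rn45s kept, were detected in 50% of the higher target and had a mean of at least 0.5 there. On the heart side they began with a receptor for neuropeptide Y. Npy2r (chr3:82538383-82548084, minus strand, mm10) ran from 0 to 6.87 per 10000 in heart neurons with a median of 0.172, and from 0 to 0.214 in larynx neurons with a median of 0. Its mean was 0.506 ± 0.884 (SD over heart neurons) and 0.00866 ± 0.0365 (SD, n = 52) in larynx, a 58.4-fold difference. Reads were found in 60.9% of heart neurons (52.7 to 68.8) and 7.69% of larynx neurons (2.14 to 18.5), with 9148 reads in all (exact Poisson interval 8961 to 9337) against 27 (17.8 to 39.3). The distributions overlapped at 0, and 71 heart neurons lay above every larynx neuron. ACP neurons averaged 0.619 and ACV neurons 0.445.

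Bche, which codes for the acetylcholine-splitting enzyme butyrylcholinesterase, was 52.2-fold higher in heart neurons, at 0.696 ± 0.966 against 0.0133 ± 0.0514. It was detected in 89.8% of ACV, 43.4% of ACP and 9.62% of larynx neurons, and 80 heart neurons exceeded the highest larynx neuron (0.249). The other 7 genes considered among those for acetylcholine synthesis and transport were not 2-fold apart. Cnr1, the cannabinoid receptor CB1, was more even across the heart types. It ran from 0 to 10.3 with a median of 1.11 in heart neurons and from 0 to 1.85 with a median of 0 in larynx neurons, and its mean was 9.08-fold higher in heart (1.55 against 0.171). Reads of Cnr1 came from 98.1% of ACP, 91.8% of ACV and 48.1% of larynx neurons.

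Myl1, a myosin light chain gene best known from fast skeletal muscle, was higher in the neurons that do not supply skeletal muscle (0.82 in heart, 0.0157 in larynx), with 1.18 in ACV and 0.149 in ACP. Maoa, which breaks down monoamines, stood at 2.35 in heart and 0.377 in larynx neurons, and 93.4% of heart neurons were above the larynx median of 0.154. The T-box transcription factor gene Tbx3 was detected in 79.2% of ACP, 79.6% of ACV and 21.2% of larynx neurons, with means of 0.815, 0.636 and 0.0901. Tuba1c, an alpha tubulin gene, was 14.2-fold higher in heart neurons although it was detected in 96.7% of heart and 94.2% of larynx neurons. Its sequence is close to those of Tuba1a and other tubulin genes, so the division of reads among them is uncertain.

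Cntn5, a contactin of the axon surface, reached 1.95 in heart and 0.233 in larynx neurons, and the cadherin gene Cdh8 reached 1.34 and 0.21, with ACP and ACV close to each other for Cdh8 (1.28 and 1.37). The diacylglycerol kinase gene Dgkg was 15.3-fold higher in heart, with 94 heart neurons above all larynx neurons. Susd5, Serpinf1, which codes for pigment epithelium-derived factor, and Far2, a fatty acyl reductase gene, were also among the leading heart genes, with log2 folds of 4.94, 2.59 and 2.49, as was Gfra2, which is described with the GDNF receptors. Exons of Dgkg, Cntn5, Tbx3, Cdh8 and Far2 overlap genes on the other strand, and the counting strand is not given in the sources used here, so reads of such neighbours cannot be separated.

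Of the 14 leading larynx genes 5 were peptide precursor genes. Calca (chr7:114631478-114636357, minus strand), the precursor gene of calcitonin and CGRP, ran from 0 to 130 per 10000 in larynx neurons with a median of 9.47, and from 0 to 7.44 in heart neurons with a median of 0. The mean was 20.95 ± 27.2 in larynx and 0.333 ± 0.974 in heart, a 62.8-fold difference. Reads were found in 96.2% of larynx neurons (86.8 to 99.5) and 45.7% of heart neurons (37.6 to 53.99). Of the 52 larynx neurons, 29 lay above every heart neuron, and no heart neuron reached the larynx median. Calcb, the second CGRP gene, had means of 13.5 and 0.585, and 29 larynx neurons again exceeded all heart neurons. Calca and Calcb resemble each other in sequence, so a share of reads may have been assigned to the wrong copy.

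Uts2, which encodes urotensin 2, averaged 0.939 in larynx and 0.0341 in heart neurons, with reads in 61.5% and 8.61% of them. Pnoc, the nociceptin precursor gene, was detected in 90.4% of larynx and 33.8% of heart neurons, at 3.02 and 0.199. Cartpt, the CART peptide gene, stood at 1.57 and 0.215 and overlapped more, with only 1 larynx neuron above the highest heart neuron. Trh, which codes for thyrotropin-releasing hormone, was absent from the median larynx neuron yet 42.7-fold higher by mean (2.03 against 0.0475), with 11 larynx neurons above all heart neurons.

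Timp3, an inhibitor of matrix metalloproteinases, was detected in 94.2% of larynx and 62.3% of heart neurons, at means of 6.63 and 0.43. Its exons overlap Syn3 on the other strand. The lipid signaling genes Dgkk, a diacylglycerol kinase, and Plch1, a phospholipase C, were 8.89-fold and 8.61-fold higher in larynx neurons. Pcdh8 (a protocadherin), Ltbp3 (a binding protein of latent TGF-beta), Sema5b (a semaphorin), Adgrg2 (an adhesion receptor) and Tacr1 (the substance P receptor) were also among the leaders, with log2 folds from -3.10 for Pcdh8 to -2.78 for Tacr1. All 28 leading genes, 14 for each target, remained at least 2-fold apart on the same side under each of the 14 alternative scalings and sets of neurons, which for the scaling with Rn45s kept was a condition of their choice and which their large folds favor. Over all calls, 229 of the 570 heart genes and 262 of the 866 larynx genes did so.

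**Figure D3:**
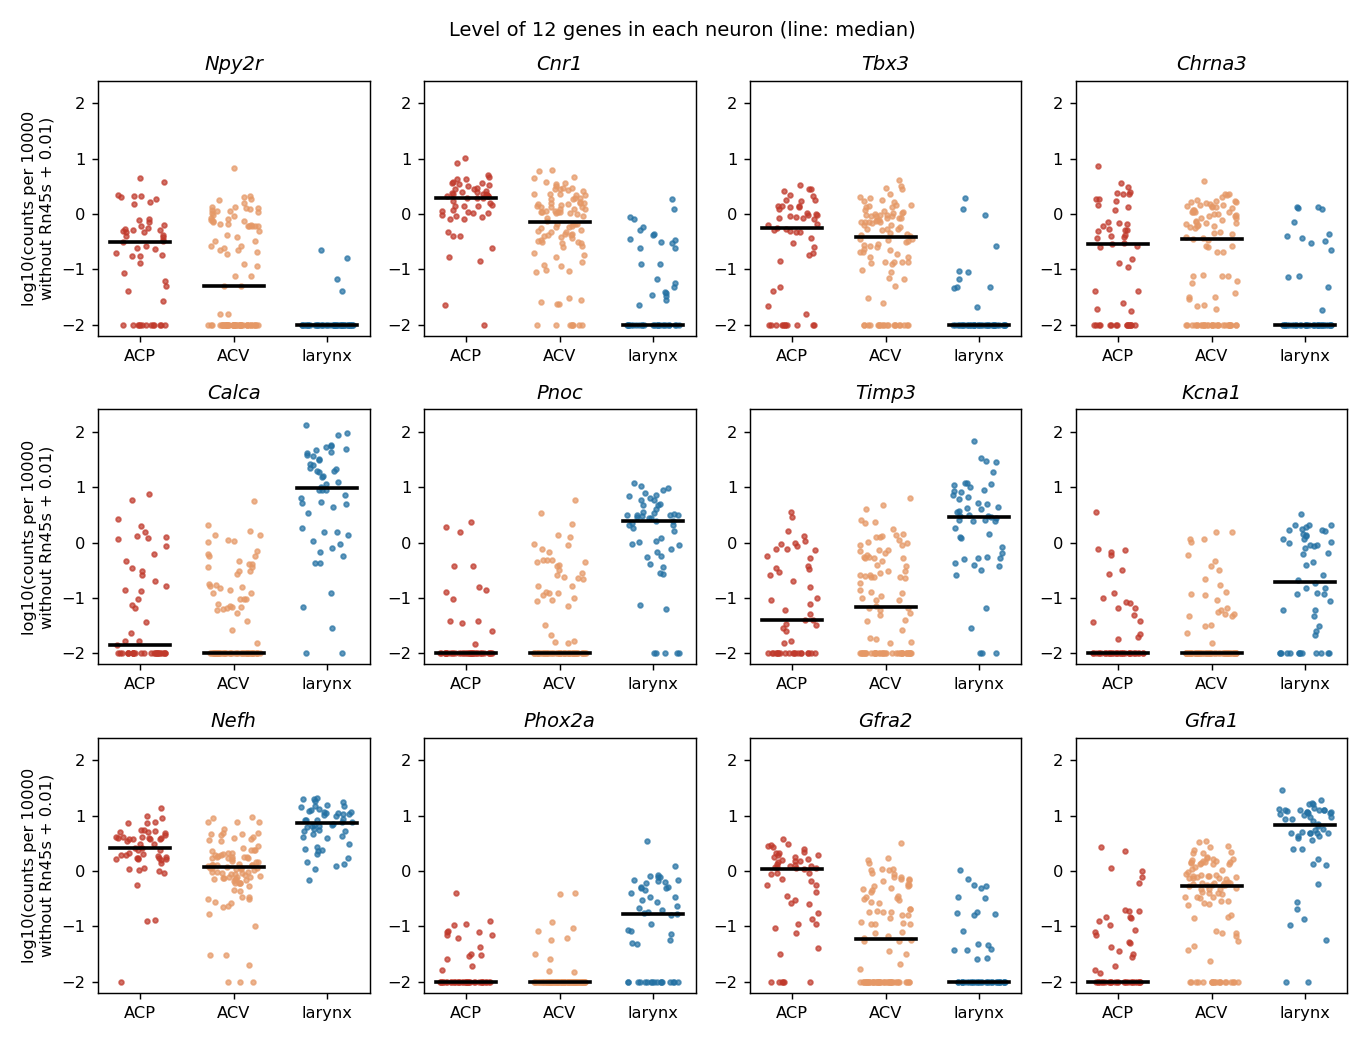
Level of 12 genes in each neuron as log10 of counts per 10000 without Rn45s plus 0.01 (1 point per neuron, line at the median), for ACP, ACV and larynx neurons. Points at the bottom are neurons without a read. Calca and Gfra1 separate most larynx from most heart neurons, whereas Chrna3 and Kcna1 overlap widely.

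Promoters of the leading pair of genes on each side that RefSeq lists are shown so that the sequence ahead of genes higher in opposite targets can be compared. Each run covers 300 bases on GRCm38.p6, most of them before the start that RefSeq gives, written 5′ to 3′ along its strand. Capitals mark the TATA-type motif TATAAA and the GC box GGGCGG, and would also mark the homeodomain core TAATTA and the cyclic AMP response element TGACGTCA. Motifs were searched on both strands with overlaps counted. The windows are chr3:82548036-82548335 (minus) for Npy2r, chr1:66945007-66945306 (minus) for Myl1, chr7:114636308-114636607 (minus) for Calca and chr4:150996847-150997146 (plus) for Uts2. GENCODE places the start of Myl1 farther upstream, at 66945404, so the Myl1 window lies inside the GENCODE gene.
Npy2r: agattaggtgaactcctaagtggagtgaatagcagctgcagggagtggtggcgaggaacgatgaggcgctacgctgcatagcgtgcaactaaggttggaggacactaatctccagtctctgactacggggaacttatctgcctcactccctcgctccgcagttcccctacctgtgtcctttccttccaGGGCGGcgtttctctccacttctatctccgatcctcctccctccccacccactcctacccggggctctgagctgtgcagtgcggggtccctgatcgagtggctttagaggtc
Myl1: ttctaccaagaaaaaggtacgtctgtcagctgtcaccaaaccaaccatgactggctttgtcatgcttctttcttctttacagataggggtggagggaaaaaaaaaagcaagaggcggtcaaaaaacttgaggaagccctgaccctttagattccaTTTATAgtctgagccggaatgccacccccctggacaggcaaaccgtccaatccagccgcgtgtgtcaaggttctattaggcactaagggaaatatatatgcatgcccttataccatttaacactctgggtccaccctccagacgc
Calca: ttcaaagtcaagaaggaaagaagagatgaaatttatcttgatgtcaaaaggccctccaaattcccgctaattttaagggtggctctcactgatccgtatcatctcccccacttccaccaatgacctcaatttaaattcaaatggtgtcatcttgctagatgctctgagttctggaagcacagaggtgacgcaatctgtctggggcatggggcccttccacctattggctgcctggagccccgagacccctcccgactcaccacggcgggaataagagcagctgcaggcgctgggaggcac
Uts2: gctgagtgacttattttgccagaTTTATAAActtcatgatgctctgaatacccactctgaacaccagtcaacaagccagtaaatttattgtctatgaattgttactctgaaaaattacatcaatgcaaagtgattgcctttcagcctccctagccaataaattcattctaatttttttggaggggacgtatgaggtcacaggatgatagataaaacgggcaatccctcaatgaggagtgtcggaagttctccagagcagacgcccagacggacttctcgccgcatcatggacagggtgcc

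GGGCGG occurs in 35.7% of the 32851 promoters listed and in 63.9% of those of genes considered, against 60.7% for shared heart genes and 62.7% for shared larynx genes. TATAAA occurs in 13.6% of all promoters, 6.52% of those of genes considered, 8.59% of shared heart and 7.2% of shared larynx promoters. For TAATTA the shares were 5.29, 2.51, 3.37 and 2.46% in the same order, and for TGACGTCA 1.79, 3.14, 2.15 and 1.33%. The sets of promoters overlap, and a match describes letters in a window and no site.

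**Figure D4:**
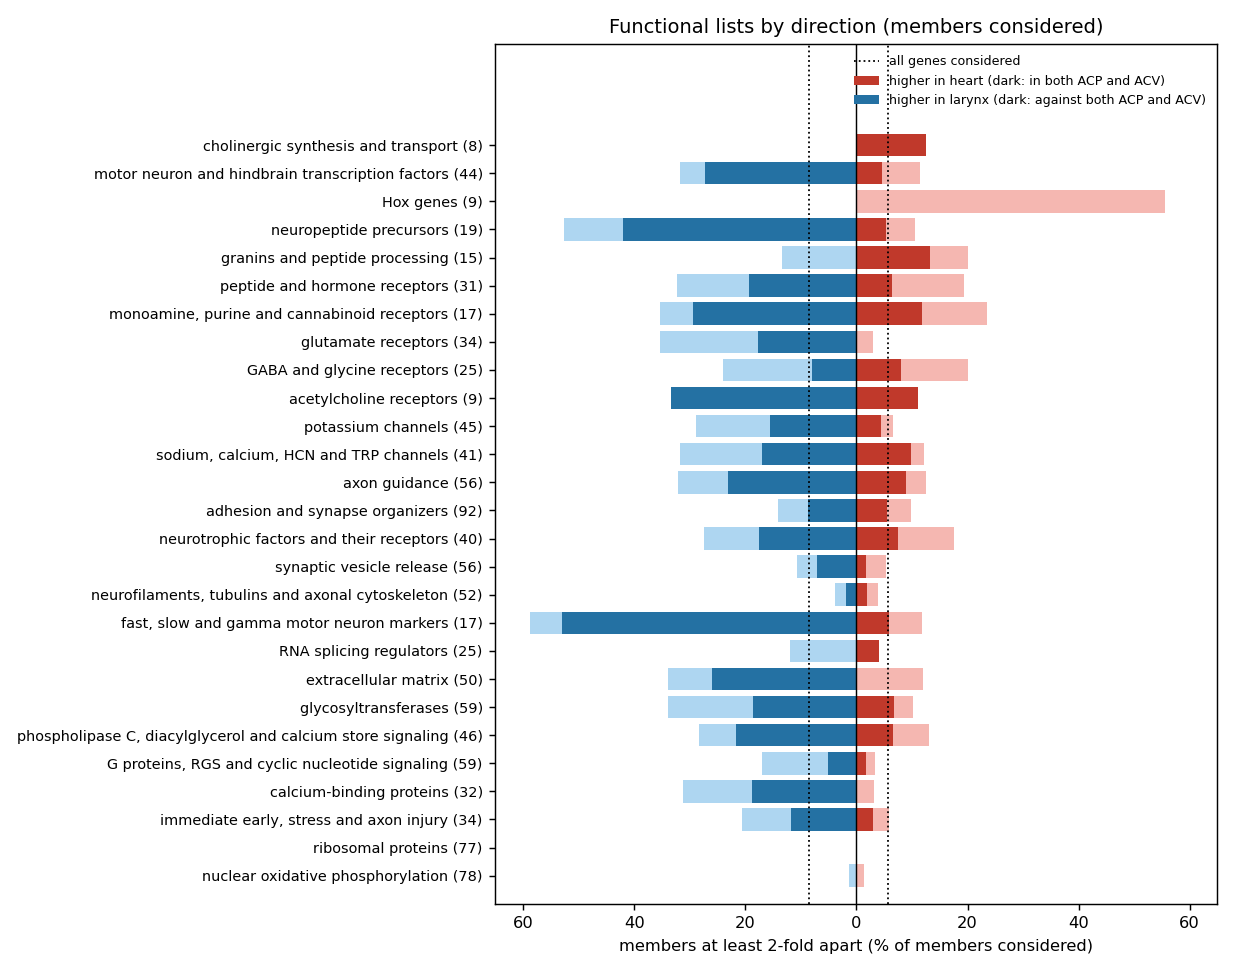
Percent of the considered members of each functional list that were at least 2-fold higher in larynx (left) or heart neurons (right), with the number considered in brackets. Dark bars are members shared by ACP and ACV, pale bars add those carried by a single type, and dotted lines mark all genes considered (8.51% larynx, 5.6% heart). The Hox genes have no dark bar, and ribosomal proteins have no bar. Lists were chosen with earlier results of these data known.

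Neuropeptide precursors leaned to larynx neurons, with 10 of 19 members considered higher in larynx, 8 of them against both heart types, and 2 higher in heart. The list median was -1.06 on the log2 scale. Besides the genes above, Pdyn, Nppc, Gal and Cck were larynx genes. The heart members were Grp, which encodes gastrin-releasing peptide (0.155 in heart, 0.0328 in larynx), and Uts2b, a relative of Uts2 that was carried by ACP (0.938 in ACP, 0.151 in ACV, 0.0896 in larynx). Genes of peptide storage and processing leaned less, with 3 heart (20%) and 2 larynx calls (13.3%) among 15. Secretogranin 2 (Scg2) ran from 1.69 to 38.8 in heart neurons (median 10.4) and from 0 to 31.3 in larynx neurons (median 1.69), a shared 3.94-fold heart excess. The prohormone convertase gene Pcsk1 was a heart call through ACP (0.84), with ACV (0.346) just under 2-fold above larynx (0.182). Chga and Vgf, whose products are stored in the same granules, were higher in larynx than in ACV neurons but not 2-fold above ACP.

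Receptors for peptides and hormones gave 6 heart (19.4%) and 10 larynx calls (32.3%) among 31 members, with 2 and 6 of these shared. The shares of all genes considered were 5.6% and 8.51%. Larynx shares of 24 to 35.3% were found also in the other receptor, channel and axon guidance lists below, so this lean is not particular to peptide receptors. Npy2r and the neurotensin receptor gene Ntsr1 (0.109 in heart, 0.029 in larynx) were the shared heart members, and the somatostatin receptor gene Sstr2 was carried by ACV (0.528 in ACV, 0.048 in ACP, 0.0435 in larynx). Tacr1, the orexin receptor gene Hcrtr1 and Lgr5, a receptor for R-spondins, led the larynx side. Among 17 receptors for monoamines, purines and cannabinoids, 4 (23.5%) were heart and 6 (35.3%) larynx calls. The purine receptor gene P2ry1 reached 0.307 in ACV, 0.032 in ACP and 0.0047 in larynx neurons. Serotonin receptor genes were split, since Htr3b was an ACV gene (0.527, against 0.0255 in larynx) whereas Htr2c, Htr4, Htr3a and Htr2a were higher in larynx neurons. Reads of Htr3b were found in 0 of 53 ACP neurons, where the limit of 3 neurons set by a count of 0 allows a share of neurons with a read of up to 5.66% and the exact Clopper-Pearson upper bound is 6.72%.

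Acetylcholine receptors gave 1 shared heart gene (11.1%) and 3 shared larynx genes (33.3%) out of 9, against 3.16% and 5% of all genes considered. Chrna3, a subunit of ganglionic nicotinic receptors, was detected in 69.8% of ACP, 69.4% of ACV and 28.8% of larynx neurons and was 4.21-fold higher in heart (0.656 against 0.156). Muscarinic Chrm3 (0.0265 in heart, 0.116 in larynx), Chrm1 (0.0351, 0.144) and the nicotinic modulator Lynx1 (0.938, 3.87) were larynx genes. Chrm1 turned to a log2 fold of 0.47 when neurons with Rn45s under 50% of counts were thinned to equal depth.

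Glutamate receptors and their auxiliary subunits gave 12 larynx calls (35.3%) and 1 heart call (2.94%) among 34 members, with a list median of -0.72. For all genes considered the shares were 8.51% and 5.6%. Gria3, an AMPA receptor subunit, stood at 1.28 in larynx and 0.24 in heart neurons, and the auxiliary genes Neto2 and Cacng2 were likewise shared. The heart gene was Grm5, a metabotropic receptor carried by ACP (3.17 in ACP, 1.16 in ACV, 0.695 in larynx). Receptors for GABA and glycine were more balanced, with 5 heart (20%) and 6 larynx calls (24%) among 25. Here relatives stood on opposite sides, since the glycine receptor subunit gene Glra3 was a shared heart gene (0.251, 0.073) and Glra2 a shared larynx gene (0.239, 0.93). In the same way Kctd16, which codes for an auxiliary subunit of GABA-B receptors, was a heart call through ACV and Kctd12 a shared larynx gene. Kctd16 stood at 0.539 in ACV, 0.227 in ACP and 0.121 in larynx, so ACP was just under 2-fold on the same side (log2 fold 0.90).

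Potassium channels gave 13 larynx (28.9%) and 3 heart calls (6.67%) among 45 members, with a median of -0.79. Corresponding shares of all genes considered were 8.51% and 5.6%. Kcna1, a fast axonal channel, was detected in 75.0% of larynx and 29.8% of heart neurons and had means of 0.646 and 0.109, although a heart neuron held the highest single value (3.47). Kcna2 was also a larynx gene, while Kcna5 (0.126 in heart, 0.0288 in larynx) and the channel subunit gene Dpp10 (0.831, 0.308) were shared heart genes. Of 41 sodium, calcium, HCN and TRP channel genes and their relatives, 13 (31.7%) were larynx and 5 (12.2%) heart calls. Larynx members included the calcium channel gene Cacna1g (1.41, 0.283) and the sodium channel genes Scn1a and Scn8a. Ano2, a calcium-gated chloride channel gene, led the heart side with 0.949 in ACV, 0.0997 in ACP and 0.0317 in larynx neurons. Genes of vesicle release were mostly alike, with 3 heart (5.36%) and 6 larynx calls (10.7%) among 56, near the shares of all genes considered. Relatives differed again, as Syt5 was a shared heart gene (2.04, 0.83) and Syt2 a shared larynx gene (0.597, 2.56).

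Receptors for neurotrophic factors of the GDNF family differed between the targets. Gfra1 (chr19:58235604-58455909, minus strand), the receptor that binds GDNF, ran from 0 to 28.6 in larynx neurons with a median of 6.80 and from 0 to 3.43 in heart neurons with a median of 0.178. Means were 7.70 and 0.529, a 14.6-fold difference, and 39 of 52 larynx neurons lay above every heart neuron. ACP had less (0.189) than ACV (0.713). Its signaling partner Ret was 6.75-fold higher in larynx (9.27, 1.37), with 15 larynx neurons above all heart neurons. Gfra2, the receptor for neurturin, was higher in heart neurons, at 1.08 in ACP, 0.272 in ACV and 0.0936 in larynx. Met, the hepatocyte growth factor receptor gene, was a shared heart gene at 0.353 in ACP, 0.279 in ACV and 0.0187 in larynx neurons. The whole list of 40 growth factors and receptors held 7 heart (17.5%) and 11 larynx calls (27.5%), against 5.6% and 8.51% of all genes considered.

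Transcription factors of motor neurons and the hindbrain gave 14 larynx calls (31.8%) and 5 heart calls (11.4%) among 44 members. Of these 12 and 2 were shared. Shares over all genes considered were 8.51% and 5.6%. Phox2a, a homeobox gene, was detected in 18.5% of heart and 67.3% of larynx neurons, with means of 0.0158 and 0.326. Of the larynx neurons 17 held more Phox2a than any heart neuron. Larynx members also included Lhx4, and Zfhx4 was a heart gene through ACP. Markers of fast, slow and gamma motor neurons gave 10 larynx calls (58.8%), 9 of them shared, and 2 heart calls (11.8%) among 17. The heart calls were Spp1 and the copine gene Cpne4, a shared gene 4.25-fold higher in heart neurons (1.07 against 0.251). Dlk1, a fast motor neuron gene, was in 65.4% of larynx and 21.2% of heart neurons at the low means of 0.223 and 0.00961. Chodl, another fast marker, and Esrrg, a gamma and slow marker, were larynx genes as well.

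Hox genes needed the types to be taken apart. Of 9 considered, 5 (55.6%, against 5.6% of all genes considered) were heart calls and none was shared. Hoxa5 stood at 4.43 in ACV, 0.106 in ACP and 0.126 in larynx neurons, and was detected in 95.9%, 37.7% and 36.5% of them. Hoxb5 (1.85, 0.136, 0.194) and Hoxc4 (0.726, 0.105, 0.12) had the same order of ACV far above the rest, and Hoxc5 did too (0.568, 0.00721, 0.0303), with ACP a log2 fold of -2.07 from larynx. The other leading ACV genes were Cd9, a tetraspanin gene (8.90 in ACV, 0.753 in ACP, 0.48 in larynx), and Plcb4, a phospholipase C gene (3.86, 0.43, 0.637). ACP lay below larynx for 30 of the ACV genes and at least 2-fold below for 7. The marker sum of microglia had similar medians in ACV (1.07), ACP (1.001) and larynx neurons (0.992), but reached 78.8 in ACV against 9.18 in ACP, and its members C1qb and Cx3cr1 averaged 1.25 and 0.432 in ACV against 0.204 and 0.0512 in ACP. Spp1, a heart call through ACV (1.33, with 0.128 in ACP and 0.305 in larynx), turned to a log2 fold of -1.66 without the neurons over 1800 counts of Apoe.

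Pappa2, which codes for a protease that frees IGFs from their binding proteins, was the leading ACP gene. It was detected in 94.3% of ACP, 5.10% of ACV and 21.2% of larynx neurons at means of 2.55, 0.0136 and 0.157, so ACP lay above and ACV below larynx. The semaphorin gene Sema3d behaved likewise (1.03, 0.0335, 0.0862). Dgkb, a diacylglycerol kinase gene (2.35, 0.687, 0.371), the calcium-buffering gene Calb1 (1.76, 0.388, 0.299) and Tmem47 (1.46, 0.469, 0.266) had ACV between the other groups. D930028M14Rik was also an ACP gene. ACV lay below larynx for 11 of the 84 ACP genes and at least 2-fold below for 6.

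Some larynx calls rest on a single heart type as well. Sema3c averaged 2.93 in larynx and 1.88 in ACP but 0.182 in ACV neurons, and Ece2, an endothelin-converting enzyme gene, had 0.567, 0.385 and 0.0175. Vsnl1, a neuronal calcium sensor gene, was detected in every larynx and ACP neuron and was 2.72 lower on the log2 scale in ACV than in larynx, against 0.79 lower in ACP. Lhfpl2 had the same order. Other larynx calls passed 2-fold against ACP but not ACV, although ACV was lower than larynx as well. They include Tspan18 (1.34 in larynx, 0.174 in ACP, 0.778 in ACV) and Utrn, the utrophin gene (0.695, 0.102, 0.409). Tmem255a (2.33, 0.509, 1.17) and Slc17a6, a vesicular glutamate transporter gene (1.47, 0.309, 0.755), belong to the same class. In no gene of the class did ACV lie above larynx. None of the 72 genes of that class was a call with Rn45s kept. Markers of other neurons went both ways. Gad1 and Gad2, which make GABA, averaged 0.842 and 0.706 in larynx and 0.252 and 0.246 in heart neurons. Ddc, a monoamine synthesis gene, was higher in heart (0.296 against 0.0492), and the glycine transporter gene Slc6a5 was even (0.307 and 0.305). The summed level of 14 such markers had medians of 2.65 in larynx (0 to 20.03) and 0.998 in heart neurons (0 to 22.2). Several larynx genes named here have means below those of Gad1 and Gad2, and the part of RNA from neighbouring neurons in them was not tested.

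Axon guidance genes gave 18 larynx calls (32.1%), 13 shared, and 7 heart calls (12.5%), 5 shared, among 56. Epha7 (0.906 in heart, 0.186 in larynx) and the plexin gene Plxnb1 were shared heart genes, and Epha3 (0.0315, 0.38), Sema7a and Sema5b shared larynx genes. Adhesion genes and synapse organizers were nearer the background with 9 heart (9.78%) and 13 larynx calls (14.1%) among 92. Extracellular matrix genes gave 17 larynx calls, 13 of them shared, and 6 heart calls, none shared, among 50 members. These are 34% and 12%, against 8.51% and 5.6% of all genes considered. Timp3, Hapln4 and some other members were already in the study's list of larynx-enriched genes, so the larynx share may partly reflect the choice of members. The heart members Adamts18, Thsd7b and Col19a1 were carried by ACV. Hapln4, a link protein gene of perineuronal nets (0.0244 in heart, 0.489 in larynx), was a shared larynx gene. The collagen gene Col1a1 had the large mean difference of 2.36 against 0.108 with medians of 0, with 3 larynx neurons above all heart neurons, up to 81.9, and among neurons with Rn45s under 50% of counts its log2 fold was 1.90. Glycosyltransferases gave 20 larynx (33.9%) and 6 heart calls (10.2%) among 59. Galnt16 (0.251, 1.59) and B3galt5 were on the larynx side, and Chst8 (0.282, 0.0639) and the polysialyltransferase gene St8sia4 (0.476, 0.14) on the heart side.

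Intracellular signaling genes split by relative. Within phospholipase C, diacylglycerol and calcium store signaling (6 heart and 13 larynx calls among 46), Dgkg and Dgkb were heart genes and Dgkk a larynx gene, while Plcb4 was a heart and Plch1 a larynx gene. The calcium release channel gene Itpr3 was 48.8-fold higher in larynx, with 0.41 against 0.00841. G protein and cyclic nucleotide genes gave 2 heart (3.39%) and 10 larynx calls (16.9%) among 59, the heart share being below that of all genes considered. Rgs4, which shortens G protein signals, was a shared heart gene (3.16, 0.734) with 61 heart neurons above all larynx neurons. Calcium-binding proteins gave 10 larynx calls (31.25%) and 1 heart call (3.1%) among 32, with Pvalb (0.0387, 0.211) and Tesc (0.118, 0.519) on the larynx side. Immediate early, stress and injury genes gave 2 heart (5.88%) and 7 larynx calls (20.6%) among 34. Klf6 (1.51, 0.453) was a shared heart gene, and Fos (0.251, 0.847) and Bag3 were shared larynx genes. Surgery differed by target, and its part in these calls was not tested. Of 25 splicing regulators 4% were heart and 12% larynx calls. Celf6 was a shared heart gene (1.603, 0.37). Rbfox3, Nova1 and Mbnl2 passed 2-fold against ACV but not ACP, with Rbfox3 at a log2 fold of -0.98 in ACP. The Mbnl2 call held in 5 of the 14 alternative scalings and sets of neurons.

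Broad housekeeping groups served as a comparison. None of 77 ribosomal protein genes was 2-fold apart, with a median log2 fold of -0.18 that was 0.51 with Rn45s kept. Of 78 nuclear genes of oxidative phosphorylation 1 was a heart call, Atp5s, and 1 a larynx call, Cox6b2, with a median of -0.03. Of 52 neurofilament, tubulin and axonal cytoskeleton genes 2 (3.85%) were heart calls, Map7 among them. Another 2 (3.85%) were larynx calls, Nefm and the neurofilament heavy chain gene Nefh. Nefh ran from 0.674 to 20.4 in larynx neurons with a median of 7.26 and from 0 to 13.7 in heart neurons with a median of 1.66, and was shared (3.39 in ACP, 1.80 in ACV, 8.28 in larynx).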

How the data were processed

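Single neurons were sequenced by Smart-seq2. Per the study's methods and the submitters' processing notes, the authors aligned reads to mm10 with STAR 2.6.1d. They deposited raw counts per gene and neuron, without normalization, and a table giving each neuron's target and type. The counting program, annotation and strand setting are not given in the sources used here. A second deposited table, named as CPM, was not used, because its values had been divided by the totals of neurons taken in turn down each column.

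From the counts, Rn45s was removed and each neuron scaled to 10000 (Python 3.11.15, numpy 2.4.6, pandas 2.3.3, scipy 1.17.1). Neurons are not replicates and their mice are not given, so no test was run. Intervals are exact Poisson and Clopper-Pearson at 95%. Folds are ratios of means with nothing added. For folds, a group with fewer than 3 reads of a gene in all was set to that floor. The calling of folds was tried on simulated counts, with changes larger than 2-fold planted only in genes above the minimum level. That trial does not show how calls near 2-fold or at low levels behave. Genes were named by rule. The rule took the 14 genes of largest fold on each side that were shared, were called with Rn45s kept, were detected in 50% of the higher target and had a mean of 0.5. It added 5 heart genes carried by ACP and 5 by ACV (detected in 25% of heart neurons), 4 larynx genes against each type alone, the 5 most abundant genes that gained or lost a call with Rn45s in each direction, and up to 3 members per list and direction. Other list members are named without values, and some named or listed genes are not reported here. Members and lists were chosen with earlier results of these data known. Positions are from GENCODE vM21 and promoters from RefSeq.

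Alternatives were Rn45s kept, edgeR 4.0.16 TMM sizes, DESeq2 1.42.0 size factors (R 4.3.3), 0.1 added to both means, no filter, a stricter filter (50% and 0.5), 3-fold, counts thinned to 200000, Apoe at most 900, Rn45s under 50%, ACP and ACV weighted equally, pooled sums, and each gene's highest neuron of each target left out. Another 5 alternatives were chosen after seeing the data: Y-linked reads without Xist, Rn45s under 50% with thinning, without the 3 neurons of the closest pairs, without neurons low in motor neuron markers, and Apoe at most 1800. The 14 of these 18 that change scaling or neurons are those counted in the report.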

Additional observations from a re-analysis of the deposited data

How the results depend on the processing

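Heart, larynx, shared heart and shared larynx genes made up 5.6, 8.51, 3.16 and 5% of the genes considered. With Rn45s kept the percentages were 21.1, 2.52, 13.1 and 1.47. Adding 0.1 per 10000 to both means gave 2.05, 3.61, 0.816 and 2.14. Without a filter they were 14.4, 23.1, 6.71 and 16.9, with the stricter filter 2.85, 6.42, 1.59 and 3.56, and at 3-fold 2.01, 2.84, 1.02 and 1.64. With Rn45s under 50% of counts, which left 15 larynx neurons, heart genes made up 8.71% and shared heart genes 5.44%, and with thinning as well 8.97 and 5.56%. With each gene's highest neuron of each target left out, shared heart genes made up 5.12%. Among neurons with Y-linked and no Xist reads (66 heart, 28 larynx), larynx genes made up 14.9% and shared larynx genes 9.75%. The 4 counts stayed within 1.5 times under TMM sizes, DESeq2 sizes, thinning alone, Apoe at most 900 or 1800, equal weights for ACP and ACV, pooled sums, and without the closest pairs or the neurons low in motor neuron markers. The smaller numbers of neurons in some settings apart, the causes of these shifts were not tested. Of the named genes with a call, 18 fell under 2-fold with Rn45s kept, 17 with 0.1 added and 14 among neurons with Y-linked reads only. The number was 12 with Rn45s under 50% and thinning, 10 with Rn45s under 50% alone, and 7 or fewer under each other alternative. No filter, the stricter filter and 3-fold leave the fold of each gene unchanged, so no gene could fall under 2-fold there. Named genes that changed side were Spp1 (log2 fold -1.26 at Apoe up to 900, -1.66 at up to 1800), Col1a1 (1.90 with Rn45s under 50%, 1.80 with thinning), Pcsk5 (-0.048 with Y-linked reads only), and Chrm1 (0.47) and Trpc4 (0.37) with Rn45s under 50% and thinning. No paired analysis was possible because the labels give neither mice nor replicate numbers. Depth limits low levels, and the shallowest larynx neuron held 118492 counts without Rn45s.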
